A study of Bos taurus with 8 samples.

Results

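The EYA, SIX-family, DACH and SALL genes are developmental regulators, and 9 of them were followed here in articular chondrocytes: *EYA1*, *EYA2*, *EYA3*, *EYA4*, *SIX2*, *SIX4*, *DACH1*, *SALL1* and *SALL2*. The set was chosen by a measured value, in that *EYA2* and *SALL1* were higher in deep zone chondrocytes (DZCs) than in superficial zone chondrocytes (SZCs), so the zone difference of *EYA2* and *SALL1* is described below with no test. The other members were taken in by family name, whatever their values. A row was found by name for 8 of the 9 among the 24596 genes counted, and 7 had enough counts to be compared. *SIX4* was not matched to a row and was not analysed here.

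Cartilage came from the knee joints of wild type calves aged 1 to 2 weeks. A thin slice at the joint surface gave the SZCs and a slice from the bottom of the same cores gave the DZCs, while the cartilage in between was discarded. Both populations were freed by enzymes and cultured for 3 days in DMEM/F12 with serum before total RNA was sequenced, with 2 libraries per zone, described in the methods as biological duplicates. These are therefore cells grown out of the tissue rather than tissue, and no group received any other treatment.

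EYA proteins are transcriptional co-activators that do not bind DNA themselves and also act as tyrosine phosphatases. SIX-family proteins are homeodomain factors that bring EYA proteins to DNA, and DACH proteins act beside them mainly as corepressors. SALL proteins are zinc finger factors that recruit the NuRD deacetylase complex and are best known from limb, ear and kidney development. In the embryo, EYA and SIX-family genes are expressed in limb connective tissue, muscle precursors and developing tendons, and inherited changes in *EYA1* and *SALL1* cause syndromes of the ear, kidney or digits.

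Library totals lay between 19918970 and 21890549 counts. Levels are given as CPM, the counts scaled to a common library size, after scaling by the trimmed mean of *M* values (TMM), on which 1 count was worth between 0.0431 and 0.0622 CPM. A level of 3 counts, between 0.129 and 0.187 CPM, was taken as the smallest that can be shown. DZC replicate 1 stood apart from the other libraries, since *COL2A1* took 24.5% of its counts against 6.31% to 12.9% elsewhere, its TMM factor was 0.735 against 1.08 to 1.14, and 9913 genes had no count in it against 8538 to 8754. Over the tested genes, the median absolute log2 ratio between replicates was 0.57 in DZCs and 0.24 in SZCs. All 12 chondrocyte markers with a row were tested and counted in every library. Of these 12, 2 were called, both higher in DZCs as *EYA2* and *SALL1* were, namely *MATN3* (log2 fold change 2.04, edgeR exact test, FDR 0.00212) and *CNMD* (2.94, edgeR exact test, FDR 0.000917). The median over the 12 was 1.11, with *SOX9* at 0.05 and *MATN1* at -0.63. The 8 superficial zone markers, among them *PRG4*, were all called higher in SZCs. The study had reported *PRG4*, *VIT*, *EPHA3*, *WIF1*, *THBS4*, *CREB5* and *ERG* as higher in SZCs from these same libraries, so their calls were not independent.

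*EYA2*, *EYA3* and *EYA4* were the co-activators with more than a trace of counts. *EYA3* was present in both zones, *EYA2* was higher in DZCs and *EYA4* higher in SZCs. Of the 5 tested members that the choice of the set did not use, 1 had a false discovery rate (FDR) under 0.05 in edgeR's exact test with Benjamini–Hochberg adjustment, *EYA4*, which was higher in SZCs. Of all 12857 genes tested, 2.93% were called, with 0.7% higher in DZCs and 2.23% higher in SZCs. The libraries of the zones did not overlap in 2 of the 5, *EYA4* and *SIX2*, a share close to the 41.5% of all tested genes.

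**Figure D1:**
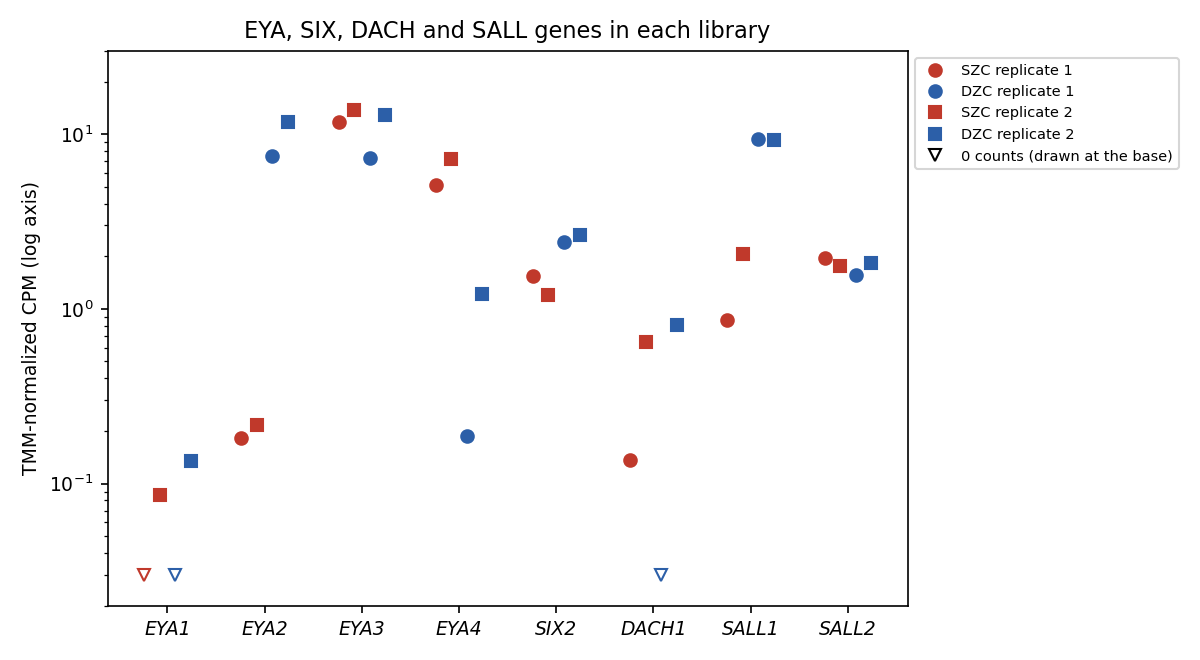
TMM-normalized CPM, on a log axis, of the 8 members with a row in each of the 4 libraries, with SZCs in red and DZCs in blue, circles for replicate 1 and squares for replicate 2, and open triangles for libraries with 0 counts. *EYA2* and *SALL1* lie higher in both DZC libraries, *EYA4* lies higher in both SZC libraries, and *EYA3* and *SALL2* overlap between the zones; heights of different genes are not comparable, since counts were not divided by transcript length.

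*EYA2*, which the files list as ENSBTAG00000013336, had 4 and 5 counts in SZCs against 120 and 262 in DZCs. This corresponds to 0.182 and 0.215 CPM in SZCs and 7.47 and 11.7 CPM in DZCs, a mean of 0.199 ± 0.0238 CPM (SD, n = 2) against 9.60 ± 3.03 CPM (SD, n = 2). Both SZC libraries were barely above the smallest level that can be shown, and both DZC libraries were far above it. The log2 fold change of DZCs over SZCs was 5.55 (standard error 0.74, 95% interval 4.11 to 7.0), a 47.0-fold difference. By size it ranked 3 among the increases in DZCs over the genes tested, but this difference chose the set, so the rank supports nothing. *EYA2* passed the filter on low counts only through DZCs. In bulk RNA, more cells that express a gene and more RNA of it per cell cannot be told apart.

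*EYA4* (ENSBTAG00000021970) went the other way. This paralogue, known for its role in hearing and the heart, had 112 and 167 counts in SZCs against 3 and 27 in DZCs. Its levels were 5.09 and 7.20 CPM in SZCs and 0.187 and 1.21 CPM in DZCs, a mean of 6.14 ± 1.49 CPM (SD, n = 2) against 0.698 ± 0.724 CPM (SD, n = 2). Every SZC library was above every DZC library, and DZC replicate 1 was at the smallest level that can be shown. The log2 fold change of DZCs over SZCs was -3.09 (standard error 0.86, 95% interval -4.78 to -1.41), an 8.54-fold higher level in SZCs, called at an FDR of 0.0327 (edgeR exact test). The call needed both SZC libraries, although the size of the difference held, at a log2 fold change of -3.33 without SZC replicate 1 and of -2.83 without SZC replicate 2. The log2 fold change was -2.34 without DZC replicate 1 and -5.01 without DZC replicate 2. In the fits without 1 DZC library the spread came from the SZC pair alone, whose replicates differed less. A call kept there therefore says little about *EYA4*. The call was also lost under scaling by library totals, at -3.25 (edgeR exact test, FDR 0.146). In edgeR's quasi-likelihood test without a replicate block, which called 0 of the 12857 genes, the value was -3.08 (FDR 0.358), and with a replicate block it was -3.37 and called (FDR 0.029).

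*EYA3* (ENSBTAG00000043989), the EYA gene that is expressed most broadly across tissues, was at 11.7 and 13.7 CPM in SZCs and at 7.28 and 12.9 CPM in DZCs. The zones overlapped, with DZC replicate 1 the lowest library. Its log2 fold change was -0.34 (standard error 0.49, 95% interval -1.29 to 0.62, edgeR exact test, FDR 0.998), so a difference was not detectable, and the interval leaves room for a fall of more than 2-fold. *EYA1* (ENSBTAG00000011298), the paralogue that is central to ear and kidney formation, had 0 and 2 counts in SZCs against 0 and 3 in DZCs. No library exceeded the limit of 3 counts, so *EYA1* was too low to be tested and no fold change is given.

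Taken as shares of the counts of the 4 EYA genes, the zones differed mainly in which paralogue stood beside *EYA3*. *EYA2* made up 1.07% (95% exact binomial interval 0.292% to 2.72%) and 1.01% (0.330% to 2.35%) of EYA counts in SZCs, and 50.0% (43.5% to 56.5%) and 45.3% (41.1% to 49.4%) in DZCs, with replicate 1 given before replicate 2. *EYA4* made up 29.9% (25.4% to 34.9%) and 33.9% (29.7% to 38.2%) in the SZC libraries and 1.25% (0.259% to 3.61%) and 4.66% (3.1% to 6.71%) in the DZC libraries. These intervals cover counting error only, because amplified reads are not independent molecules. The shares depend on transcript lengths, which were not used here. A change in the log2 ratio of a pair of genes between libraries does not. The log2 ratio of *EYA2* to *EYA4* counts within a library, with 0.5 added to each, was -4.64 and -4.93 in SZCs and 5.11 and 3.25 in DZCs, a shift of 8.97 between the zone means. This ratio does not depend on how the libraries were scaled, and as *EYA2* was chosen for its zone difference it is given without a test.

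**Figure D2:**
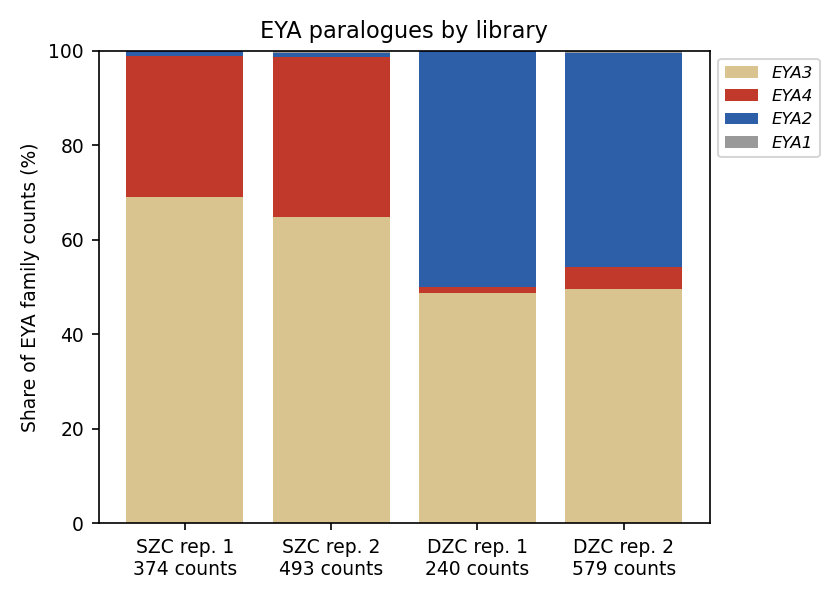
Share of the counts of *EYA1*, *EYA2*, *EYA3* and *EYA4* taken by each gene, in percent, in each of the 4 libraries, with the summed EYA counts under each bar. *EYA4* fills 29.9% and 33.9% of the SZC bars and *EYA2* 50.0% and 45.3% of the DZC bars, while *EYA3* fills 48.8% to 69.0% of every bar.

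*SIX2* (ENSBTAG00000004159), a homeodomain factor that maintains nephron progenitors in the kidney and is also expressed in embryonic connective tissue, had 34 and 28 counts in SZCs against 39 and 59 in DZCs. Its levels were 1.54 and 1.21 CPM in SZCs and 2.43 and 2.64 CPM in DZCs. Both DZC libraries were above both SZC libraries, but the log2 fold change of 0.88 (standard error 0.62, 95% interval -0.33 to 2.10) did not pass (edgeR exact test, FDR 0.85). *SIX2* thus lay among the 20.5% of tested genes with both DZC libraries on top, without being called.

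Of the relatives outside the 9, *SIX5*, at 36.5 and 29.5 CPM in SZCs and 38.8 and 21.5 CPM in DZCs, overlapped between the zones. *SIX3* had at most 1 count and *SIX6* none in any library.

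*EYA3* and *EYA4* each had their lowest level in DZC replicate 1. Of the 7 tested members, 6 were lower in DZC replicate 1 than in DZC replicate 2, against 50.9% of all tested genes. The log2 ratio of replicate 1 to replicate 2 was lowest for *DACH1*, at -4.74 from 0 and 18 counts with 0.5 added to each. It was -2.5 for *EYA4*, and 4.49% of the tested genes had a lower one. It was -0.82 for *EYA3*, -0.65 for *EYA2*, -0.23 for *SALL2* and -0.12 for *SIX2*, while *SALL1* was nearly equal in both libraries, at 0.02.

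*DACH1* (ENSBTAG00000043985), a corepressor of the limb bud that works beside EYA and SIX-family proteins, had 3 and 15 counts in SZCs against 0 and 18 in DZCs. Its levels were 0.136 and 0.646 CPM in SZCs and 0 and 0.807 CPM in DZCs, where the 0 counts of DZC replicate 1 allow up to 0.187 CPM. The replicates of each zone differed more than the zones did, and replicate 2 was the higher one in both. The log2 fold change was 0.07 with a standard error of 1.47 (95% interval -2.81 to 2.94, edgeR exact test, FDR 1), so a difference was not detectable, and the interval spans changes of several-fold in both directions. *DACH1* passed the filter on low counts only through replicate 2 of each zone. *DACH2*, its paralogue, had no count in any library.

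*SALL1* (ENSBTAG00000008544), a zinc finger factor that acts mostly as a repressor, had 19 and 48 counts in SZCs against 151 and 207 in DZCs. Its levels were 0.863 and 2.07 CPM in SZCs and 9.39 and 9.28 CPM in DZCs. The DZC libraries were almost equal, the SZC libraries differed from each other, and no SZC library reached either DZC library. The log2 fold change was 2.66 (standard error 0.62, 95% interval 1.45 to 3.88), a 6.34-fold difference. With single libraries left out, this value ran from 2.18, without SZC replicate 1, to 3.43, without SZC replicate 2.

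*SALL2* (ENSBTAG00000013249), a paralogue described mostly in relation to cell growth and the eye, had 43 and 41 counts in SZCs against 25 and 41 in DZCs. At 1.95 and 1.77 CPM in SZCs and 1.56 and 1.84 CPM in DZCs, the zones overlapped, and the log2 fold change was -0.13 (standard error 0.62, 95% interval -1.35 to 1.09, edgeR exact test, FDR 1). *SALL4* had 0 and 2 counts in SZCs against 5 and 5 in DZCs, too few to be tested. *SALL1* held 30.6% (95% exact binomial interval 19.6% to 43.6%) and 52.8% (42.0% to 63.3%) of the counts of these 3 SALL genes in SZCs. In DZCs it held 83.4% (77.2% to 88.5%) and 81.8% (76.5% to 86.4%). Within libraries the log2 ratio of *SALL1* to *SALL2* counts was -1.16 and 0.22 in SZCs and 2.57 and 2.32 in DZCs, and the SZC replicates differed by more than the DZC replicates. As *SALL1* was chosen for its zone difference, this ratio is a description too.

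**Figure D3:**
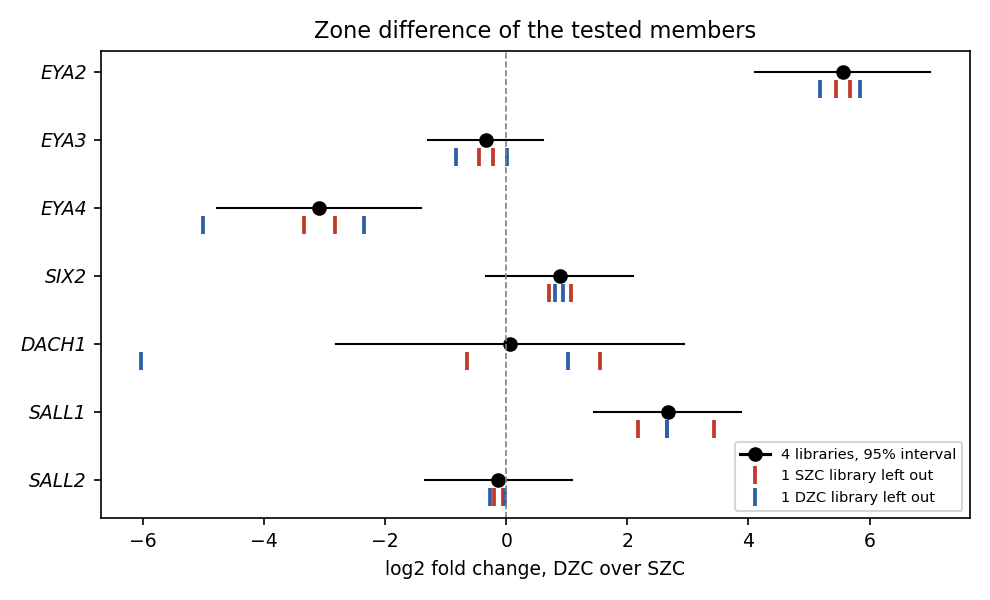
log2 fold change of DZCs over SZCs of the 7 tested members, with the 95% interval from the negative binomial model as a black line and, under it, the value with each library left out in turn (red ticks without 1 SZC library, blue ticks without 1 DZC library). *EYA2* at 5.55, *SALL1* at 2.66 and *EYA4* at -3.09 lie farthest from 0, and the value of *DACH1* ranges from -6.03 to 1.55 with the library left out.

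For *EYA2* and *SALL1*, the 5 named genes with the most similar profile were found by the root mean square difference of log2 CPM over the 4 libraries, each profile centered on its own mean. Those nearest to *EYA2* were *PAMR1* (0.26), *VWC2* (0.295), *RASGRF2* (0.527), *SLC38A4* (0.581) and *PCDH10* (0.634). They had log2 fold changes between 3.96 and 6.20. In centered log2 CPM all were higher in DZC replicate 2 than in replicate 1, although *PCDH10* was nearly equal, at 1.98 and 1.94. *VWC2* was also scarce in SZCs, with 2 and 2 counts there and 48 and 114 in DZCs. Those nearest to *SALL1* were *DEPP1* (0.0963), *TSPAN5* (0.125), *APOD* (0.173), *MMP28* (0.177) and *EFNB2* (0.19). Their profiles also had SZC replicate 1 as the lowest library, such as *DEPP1* with 37 and 103 counts in SZCs and 301 and 462 in DZCs. The 2 lists share no gene. With 4 libraries such likeness is a description only.

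**Figure D4:**
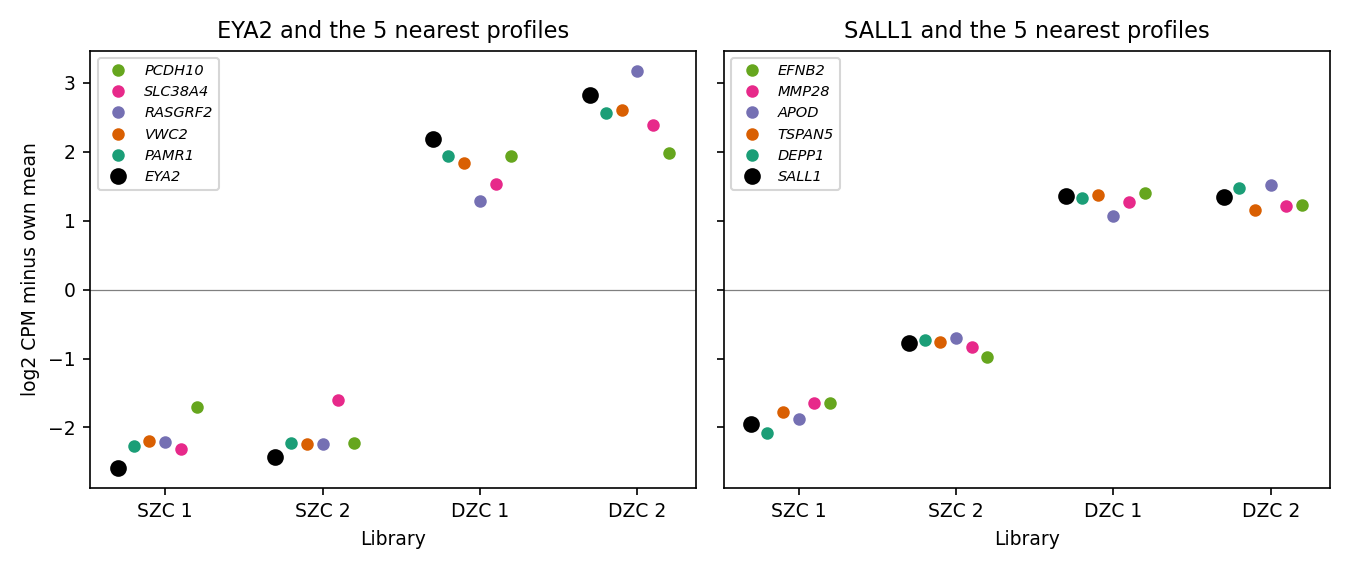
log2 CPM minus the gene's own mean over the 4 libraries for *EYA2* (left, black) and *SALL1* (right, black) and for the 5 genes nearest to each (colors), with 1 point per library. The *EYA2* group is low in both SZC libraries, while in the *SALL1* group SZC replicate 1 is lower than SZC replicate 2.

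The genes beside *EYA2*, *SALL1* and *EYA4* on their chromosomes were read where they had counts, which left 1 tested neighbor each for *SALL1* and *EYA4*. None of these was called. By order in RefSeq's annotation of assembly ARS-UCD2.0, which is not the build that was counted and serves here for names only, the nearest protein-coding genes of *EYA2* are *SLC2A10* and *ZMYND8*. Their log2 fold changes were 0.40 (FDR 0.948) and -0.46 (FDR 0.85) in edgeR's exact test. For *CYLD*, a neighbor of *SALL1*, the log2 value was 0.20 (edgeR exact test, FDR 1). Beside *EYA4*, *RPS12* was at 0.02 (edgeR exact test, FDR 1) and *TCF21* had no count in any library. Reads were counted without regard to strand, and the annotation places other transcripts within the spans of *EYA2*, *EYA3* and *SALL1*. Overlap of exons was not examined, so it is not known whether reads of these transcripts were counted for the members. Among these transcripts, *PTAFR* within *EYA3* had a row of its own, with at most 14 counts in a library, and the others were not matched to a row.

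Partners and related genes were read from 8 lists, with 57 genes tested after removal of repeats. Of these 57, 2 were called, both higher in SZCs, which is 3.51% against 2.93% of all tested genes. The called genes were *TSHZ2*, a zinc finger factor at 19.6 and 15.9 CPM in SZCs and 2.30 and 2.73 CPM in DZCs, and *OSR2*, a zinc finger factor of joint and limb development at 30.5 and 21.5 CPM in SZCs and 6.91 and 6.23 CPM in DZCs. Their log2 fold changes were -2.81 (standard error 0.46, FDR 2.14e-06) and -1.98 (standard error 0.41, FDR 0.000437) in edgeR's exact test. Both belong to the list of partners in embryonic kidney and limb, in which the other 10 tested genes did not pass. Nearest to a call among these were *ZNF703*, with a log2 fold change of -1.43 (edgeR exact test, FDR 0.0774), and *TBX18*, a T-box factor of limb and ureter mesenchyme, with -2.14 (edgeR exact test, FDR 0.237). The study itself lists *TBX18* as higher in SZCs, at an FDR under 0.05 in its own edgeR exact test, so this gene was called there but not here. The median log2 fold change of that list was -0.77, against 0.04 over all tested genes, and 5 of its 12 tested genes had an unadjusted p under 0.05 in edgeR's exact test, against 9.09% of all tested genes. Of these 5, *TSHZ3*, a relative of *TSHZ2*, was the 1 with a positive log2 fold change, of 1.19 (edgeR exact test, FDR 0.259).

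None of the 13 NuRD subunits, the complex that SALL proteins recruit, was called by edgeR's exact test, and their median log2 fold change was 0.04. The 10 tested genes of the SKI family and the NCoR and SIN3 corepressors, relatives and partners of DACH proteins, had a median of 0.02 with none called. None was called either among the 5 tested Groucho/TLE corepressors, which SIX-family proteins bind, with a median of 0.49, or among the 5 tested genes around phosphorylated H2AX, a substrate of EYA phosphatases, with a median of -0.14. In these 4 lists, 0 genes had an unadjusted p under 0.05 in edgeR's exact test, against 9.09% of all tested genes, and DESeq2 called 0. Of 9 *PAX* genes, which act above EYA and SIX-family genes in several organs, 4 were tested and none was called. The unadjusted p was under 0.05 for 3 of these 4, in both directions. *PAX1*, a factor of early cartilage, had 11 and 12 counts in SZCs against 21 and 60 in DZCs (edgeR exact test, FDR 0.232), *PAX8*, which passed the filter on low counts only through DZCs, had 2 and 2 against 11 and 14, and *PAX9* had 33 and 23 against 4 and 11.

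Of the genes that EYA and SIX-family proteins regulate in muscle, kidney or tumor cells, 6 were tested and none was called. *RET*, a receptor for a kidney growth signal, came nearest, at 6.32 and 4.27 CPM in SZCs and 1.62 and 0.896 CPM in DZCs (log2 fold change -2.08, edgeR exact test, FDR 0.0681), and it was the 1 gene of the 6 with an unadjusted p under 0.05. DESeq2 and scaling by library totals called *RET* as well. *CCND1*, a cell cycle gene, was at 5.13 and 8.88 CPM in SZCs and at 2.43 and 24.8 CPM in DZCs, so that its DZC libraries lay on either side of the SZC libraries. *EZR* and *MYC*, the former a linker of membrane and cytoskeleton, had log2 fold changes of 0.12 and -0.48. The myogenic factors *MYOG* and *MYOD1* had no count in any library.

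**Figure D5:**
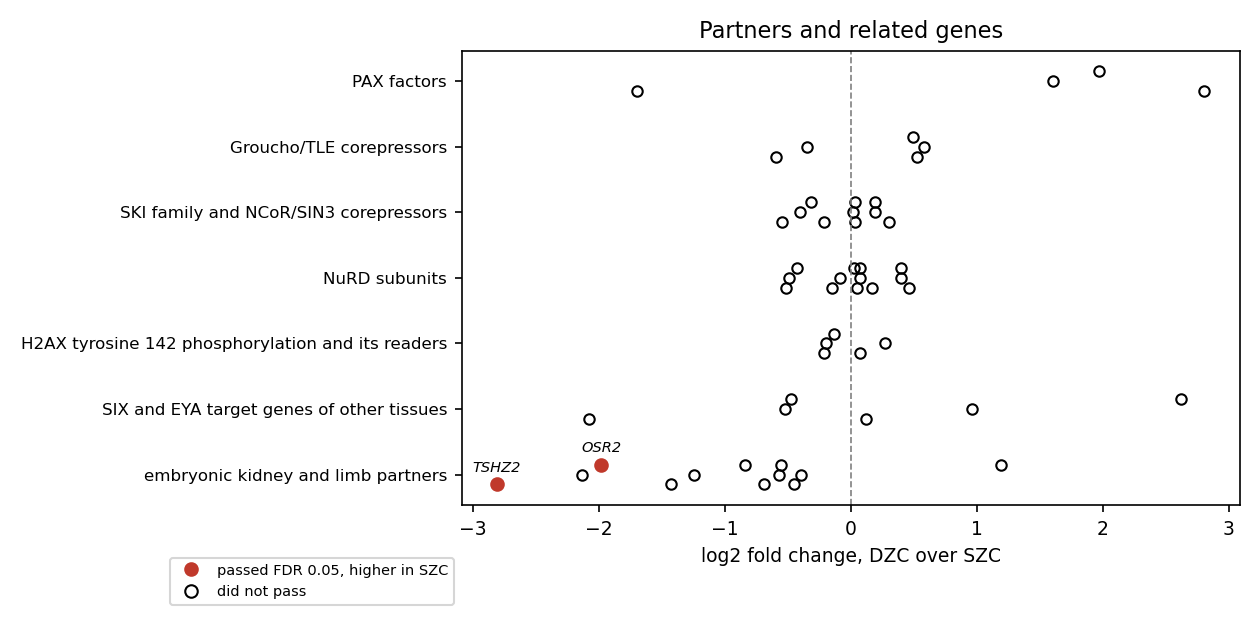
log2 fold change of DZCs over SZCs for each tested gene of 7 of the lists of partners and related genes, 1 point per gene, filled where the FDR of edgeR's exact test was under 0.05. *TSHZ2* and *OSR2* are the only filled points, and the NuRD and NCoR lists lie close to 0.

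Markers of other cells were read beside these results. Muscle, where EYA and SIX-family genes are prominent, was nearly absent from the marker counts. The defining genes *MYOD1*, *MYOG* and *MYH8* were at 0 and *CKM* had at most 1 count, while the summed level of the 11 muscle markers with a row lay between 6.66 and 16.9 CPM over the libraries, most of it from *DES* and *TNNT3*. Genes of hypertrophic chondrocytes and bone cells separated the DZC libraries, with a summed level of 35.2 and 274 CPM in DZCs, and 110 to 113 CPM in SZCs. *SPP1*, which encodes osteopontin, carried most of this sum, at 108 and 102 CPM in SZCs and 18.9 and 201 CPM in DZCs. Without *SPP1*, left out after its values were seen, the other 9 genes summed to 4.91 and 7.45 CPM in SZCs and 16.3 and 73.5 CPM in DZCs, where *IHH* gave 12.1 CPM of the sum in DZC replicate 1. Without *IHH* as well, the sums were 4.32 and 7.24 CPM in SZCs and 4.23 and 71.4 CPM in DZCs, and DZC replicate 2 alone was higher. In DZC replicate 1 *COL10A1*, *MMP13* and *IBSP* had 0 counts, while *IHH* had 194, *SPP1* 304 and *PHOSPHO1* 65. *IHH*, a signal of early hypertrophic cells, was the 1 gene of the 5 tested in that list that was called, and it was higher in DZCs, with 13 and 5 counts in SZCs and 194 and 48 in DZCs. The part of such cells in the levels of *EYA2* and *SALL1* was not tested.

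Beside *EYA4*, which was higher in SZCs, the median log2 fold change was -1.27 over the 5 tested endothelial, -1.18 over the 4 tested leukocyte and -1.58 over the 2 tested adipocyte markers. Of these, *ERG* and *FABP4* were called, and *VWF*, an endothelial gene, was at 0.52 (edgeR exact test, FDR 0.986). The 3 tested tendon or ligament markers had a median of 0.30 with none called, from *MKX* at 0.58 to *FMOD* at -0.15, and 0 of them had an unadjusted p under 0.05 in edgeR's exact test. The 7 endothelial markers other than *ERG*, which is also a superficial zone gene, summed to 5.72 and 12.9 CPM in SZCs and 3.92 and 8.16 CPM in DZCs. The 8 leukocyte markers summed to 17.6 and 28.5 CPM in SZCs and 6.78 and 13.0 CPM in DZCs, with *PTPRC*, the defining one, at 0 to 14 counts. *CD14* carried most of the leukocyte sum, and without it, a choice made after seeing the values, the other 7 summed to 5.59 and 12.4 CPM in SZCs and 2.86 and 6.46 CPM in DZCs. The zones overlapped in this sum and in the endothelial sum without *ERG*, but not in the leukocyte sum with *CD14*. The 4 adipocyte markers with a row summed to 17.7 and 15.2 CPM in SZCs and 6.78 and 5.87 CPM in DZCs, without overlap. Among them *FABP4* was called higher in SZCs (log2 fold change -2.96, edgeR exact test, FDR 3.32e-05), *PLIN1* was at -0.20 (edgeR exact test, FDR 1), and *LEP* and *CIDEC* had at most 1 count. The part of such cells in the level of *EYA4* was not tested.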

How the data were processed

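Single-end reads of 75 bases were aligned by the authors to the cow genome, build UMD 3.1, with STAR 2.5.2b. The deposited values are raw counts of reads per gene, made without use of strand. A separate deposited table of the authors' own log2 fold changes and FDR values was read for gene symbols only. The ATAC-Seq part of the series was not used here.

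Labels gave each library its zone. Replicates differed by more than sampling noise (chi-square per degree of freedom 61.9 for SZCs, 303 for DZCs), so all were kept as separate samples. Tests were run in edgeR 4.0.16 under R 4.3.3, with TMM scaling, edgeR's default filter, the exact test named in the study's methods and an FDR threshold of 0.05 over all tested genes. Standard errors come from the fitted model and its dispersion for each gene, and intervals are 1.96 standard errors to each side. With 2 libraries per zone, an exact permutation test cannot go below p = 0.333, so none was used. Alternatives were the quasi-likelihood test with and without a replicate block, DESeq2 1.42.0, other filters, scalings and prior counts, and each library left out in turn. Scripts were tested on simulated data.

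Members and gene lists were chosen with earlier results of these data known. Named genes are the members, called genes of the lists, key cell type markers, and the 5 profiles nearest to *EYA2* and to *SALL1* (prior count 2). Other list genes and chromosomal neighbors were picked for the text with their values known, and 1 related gene is not reported here. All 9 members matched a RefSeq gene by symbol.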

Additional observations from a re-analysis of the deposited data

How the results depend on the processing

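With 2 libraries per zone the calls varied with the method. Without a block, edgeR's quasi-likelihood test called 0 genes, and so 0 higher in DZCs, 0 higher in SZCs, 0 members and 0 genes of the partner lists. In it, 1126 genes, 3 members and 8 partner genes had an unadjusted p below 0.05. These 3 members include the 2 genes that chose the set, so their count supports nothing about those genes. The exact test called 377 genes and DESeq2 403. Replicate numbers are shared by the zones, but no source says that equal numbers share a joint. Deviations of same-numbered libraries had a correlation of 0.43 over genes, and a replicate block in that quasi-likelihood fit gave 347 calls, 277 of them shared with the 377, with *EYA4* called among the 5 members that the choice of the set did not use. Scaling by library totals alone shifted the median log2 fold change of all genes by -0.3, called 44 genes higher in DZCs against 90 and 1 member against 3, counts that include the 2 genes that chose the set and support nothing about them, and raised the share of calls higher in SZCs from 76.1% to 86.7%. *SALL1* was at 2.35 there, which is a description only, since a shift of -0.3 could not have reversed it. *DACH1* changed direction with the block (-0.27) and with library totals (-0.023), and *EYA3* without DZC replicate 1. The cause was not tested.

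With each library left out in turn, where the lone library of a zone is assumed to vary like the others, the number of genes called ranged from 58 (without SZC replicate 1), through 150 (without SZC replicate 2) and 891 (without DZC replicate 1), to 2725 (without DZC replicate 2). Those higher in DZCs ranged from 6 to 1118, those higher in SZCs from 52 to 1607, members from 1 to 3 and partner genes from 0 to 13. The member counts include tests of *EYA2* and *SALL1*, whose zone difference chose the set, so they support nothing about those genes. The log2 fold change of *DACH1* ranged from -6.03, which rests on a library with 0 counts and on the prior count, to 1.55, and that of *EYA3* from -0.82 to 0.0097. That of *EYA2* ranged from 5.17 to 5.84 and that of *EYA4* from -5.01 to -2.34. Over the other 8 alternatives *EYA2* ranged from 5.04 to 5.6, *SALL1* from 2.35 to 2.76 and *EYA4* from -3.37 to -2.95, with an FDR for *EYA4* from 0.00956 to 0.358 that was under 0.05 in 6 of the 8.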
